A study of Mus musculus with 30 samples.

Results

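Peroxisomes are single-membrane organelles that shorten very long and branched fatty acids, make the first steps of ether lipids, and break down the hydrogen peroxide that their own oxidases release. Peroxins (Pex genes) build the organelle: Pex3, Pex16, and Pex19 put proteins into its membrane, Pex5 and Pex7 carry enzymes to it, the docking proteins, ubiquitin ligases, and recycling factors let these carriers in and out, and Pex11 proteins lengthen the membrane before division. In rodent liver, peroxisome proliferators act through the nuclear receptor PPARα, which pairs with the retinoid X receptor on direct repeats of AGGTCA and is known for inducing the enzymes of peroxisomal fatty acid oxidation. Expression of 38 such genes, among 18194 genes that the probe annotation named, is described here in liver of mice given perfluorooctane sulfonate (PFOS), a perfluorinated surfactant. The genes were taken from a list of peroxins, peroxisomal membrane proteins, and matrix enzymes by their roles, with earlier results of these data known, and they were set apart as 19 matrix enzymes and 19 peroxins or membrane proteins. The latter are called membrane genes for short, although this class also holds the carriers Pex5 and Pex7.

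Male mice of 2 genotypes were used, aged 6 to 9 months. PPARα-null mice (Null, 129S4/SvJae-Pparatm1Gonz/J) carry a targeted disruption of the receptor gene in all cells, and their wild-type counterparts (WT) were 129S1/SvlmJ mice, so that the receptor and the remaining differences between these substrains cannot be told apart. Each genotype received 0, 3, or 10 mg/kg PFOS, as its potassium salt, by gavage on 7 days in a row, and the vehicle given to all groups was 0.5% Tween 20. RNA of the left liver lobe of 5 individual mice per group was hybridized to 30 Affymetrix arrays, 1 per mouse. All values are log2 expression values, on which 1 unit is a 2-fold step. Of the 38 genes, 36 were above the filter on weak probe sets and were tested, and all 36 were above it in each of the 30 arrays. Abcd2, a transporter of very long-chain acyl-CoA, and Far1, a fatty acyl-CoA reductase of ether lipid synthesis, were above it in 1 and 2 arrays and were not tested. Calls were made by limma where p, adjusted by Benjamini-Hochberg over all kept probe sets, was under 0.05.

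The tissue and the labels were checked first. All 8 hepatocyte markers were detected, and their mean lay between 13.36 and 13.79 on the log2 scale in every array. It was lower in WT mice given 10 mg/kg (13.36 to 13.54) than in WT control mice (13.63 to 13.75, or 13.71 to 13.75 without the 2 control arrays described next), with 2 of the 8 markers called lower with and without those arrays, and lay between 13.43 and 13.79 in Null mice given 10 mg/kg against 13.66 to 13.71 in Null control mice. Kupffer cell markers were called lower for 3 of 12 in Null mice at 10 mg/kg (marker mean 8.54 to 9.24, against 8.97 to 9.47 in Null control mice) and for 0 of 12 in WT mice at that dose. Endothelial markers were called higher for 2 of 8 in Null mice at 10 mg/kg, Pecam1 and Lyve1 (3.28% of all genes were called higher). The median change over the 8 endothelial markers was below 0 (-0.10), so the list did not move in 1 direction. Stellate cell markers were called lower for 1 of 7 in WT mice at that dose. Without the 2 control arrays, the WT counts at 10 mg/kg were 1 of 12 Kupffer, 4 of 8 endothelial, and 3 of 7 stellate cell markers, all lower. Of all genes, 4.67% were called lower in WT mice at 10 mg/kg, 13% without these arrays, and 4.09% in Null mice at that dose. WT 0 mg/kg replicate 3 had the highest mean of all WT arrays for Kupffer (9.78, the other 14 reading 8.21 to 9.06), endothelial (8.70, the others 7.91 to 8.35), lymphocyte (6.53, the others 5.49 to 5.87), and stellate cell markers (8.60). When it was left out, 13 members and 719 genes in all were called in WT mice at 10 mg/kg, against 16 and 1370 with it. Leaving out WT 0 mg/kg replicate 1 gave 12 members and 662 genes, so this drop was not particular to replicate 3. The part of these marker shifts in the peroxisomal genes was not tested, and in whole liver fewer cells of a type and less RNA per cell cannot be told apart.

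In the WT 0 mg/kg group, replicates 4 and 5 stood apart and are called the 2 doubted arrays. Their Ppara level was 8.66 and 8.74, just below the 8.78 to 9.81 of the 15 arrays labeled Null, against 10.33 to 10.62 in replicates 1 to 3 of the same group and 9.93 to 10.77 in the 10 arrays of treated WT mice. Cyp2b10, a P450 gene known to be induced through the receptor CAR, read 13.04 and 12.99 in them, against 8.11 to 8.43 in replicates 1 to 3 and 12.02 to 13.37 in Null mice given 10 mg/kg. The peroxisomal genes themselves placed these arrays in the same way. Over the 38 genes, the mean absolute difference from the Null 10 mg/kg group mean was 0.119 and 0.114, whereas that from the mean of the other 3 WT control arrays was 0.290 and 0.321. All 13 other WT arrays lay nearest their own group, and all 15 Null arrays lay nearest a Null group, 11 of them their own. In 6 genes (Pex11a, Pxmp4, Hsd17b4, Ech1, Eci2, and Decr2) the Null arrays did not overlap the 13 other WT arrays, and both doubted arrays fell in the Null range for 5 of the 6 (Ech1 was the exception) and in the WT range for 0. Groups were kept as labeled, and the counts and most single calls that rest on WT control mice are given with and without these 2 arrays. Values of genes not called, of second probe sets, and of medians over all members are mostly given as labeled alone.

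Promoter sequences are shown because 4 of these genes, Pex11a, Ehhadh, Ech1, and Decr2, differed between the genotypes in their response to 10 mg/kg PFOS, and because the AGGTCA repeat is the letter pattern known for PPARα. RefSeq promoter entries (GRCm38.p6) matched 31 of the 38 genes, 17 matrix and 14 membrane. The 250 bases before each start site were searched on both strands for AGGTCA, any 1 base, AGGTCA, allowing 2 mismatches in the 12 fixed letters. Such a match was found for 3.72% of all 27025 genes with a promoter entry (1005) and for 1 of the 31, the gene of catalase (Cat), where it is given in capitals (first base at -204 from the start, 2 mismatches). An exact AGGTCA on either strand was found for 15.8% of all genes (4260) and for 3 of the 31 (Pex11g, Scp2, and Cat). No match lies in the windows of Pex11a, Ehhadh, Ech1, or Decr2, which says only that these letters are not in these 250 bases. Start sites are those of the promoter entries. Some windows overlap the annotated span of their gene, among them that of Decr2 in part and that of Scp2 in full. The windows are, for Pex11a, chr7:79743132-79743381 (minus strand), for Ehhadh, chr16:21787835-21788084 (minus strand), for Ech1, chr7:28825088-28825337 (plus strand), for Decr2, chr17:26090165-26090414 (minus strand), and for Cat, chr2:103485154-103485403 (minus strand), each read 5′ to 3′ toward the gene.
Pex11a: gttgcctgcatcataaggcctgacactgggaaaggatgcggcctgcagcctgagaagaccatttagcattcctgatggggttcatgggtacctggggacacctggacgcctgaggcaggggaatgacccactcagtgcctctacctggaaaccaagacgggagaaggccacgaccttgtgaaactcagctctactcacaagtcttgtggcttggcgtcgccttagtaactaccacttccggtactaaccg
Ehhadh: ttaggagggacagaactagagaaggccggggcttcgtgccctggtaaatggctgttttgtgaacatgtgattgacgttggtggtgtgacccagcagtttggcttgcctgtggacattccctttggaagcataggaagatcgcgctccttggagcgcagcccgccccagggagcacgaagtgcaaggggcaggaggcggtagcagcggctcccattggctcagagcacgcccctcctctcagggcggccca
Ech1: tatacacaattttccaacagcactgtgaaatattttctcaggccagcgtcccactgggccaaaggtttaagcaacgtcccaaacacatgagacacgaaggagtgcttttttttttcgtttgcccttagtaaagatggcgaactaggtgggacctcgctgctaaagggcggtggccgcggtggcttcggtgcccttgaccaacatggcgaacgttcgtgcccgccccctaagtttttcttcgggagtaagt
Decr2: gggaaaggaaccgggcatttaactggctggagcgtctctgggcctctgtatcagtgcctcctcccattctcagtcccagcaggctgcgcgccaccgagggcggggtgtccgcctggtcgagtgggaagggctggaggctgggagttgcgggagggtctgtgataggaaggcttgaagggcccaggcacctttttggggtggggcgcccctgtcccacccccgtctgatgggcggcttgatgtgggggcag
Cat: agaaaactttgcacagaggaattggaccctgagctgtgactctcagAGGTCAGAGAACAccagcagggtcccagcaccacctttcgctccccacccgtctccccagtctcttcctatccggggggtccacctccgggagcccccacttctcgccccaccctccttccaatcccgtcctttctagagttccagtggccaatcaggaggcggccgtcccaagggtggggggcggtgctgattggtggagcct

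In WT mice, PFOS raised both matrix and membrane genes. At 10 mg/kg, 16 of the 36 tested genes (44.4%) were called against 0 mg/kg, all 16 higher, where 6.6% of all 12156 genes tested were called higher and 11.3% in either direction. These were 9 of 18 matrix enzymes and 7 of 18 membrane genes. The median change was 0.28, with a range of -0.26 to 2.12, whereas the median over all genes was -0.01. At 3 mg/kg, 4 were called, all higher (0.189% of all genes): Ehhadh, Ech1, Hsd17b4, and Pex11a. Without the doubted arrays the count at 10 mg/kg was 18 (12.4% of all genes higher), of which 14 were shared with the 16, with Pex10, Pex11g, Slc25a17, and Acox2 added and Pxmp4 and Lonp2 lost. The count at 3 mg/kg stayed at 4 (0.658% of all genes higher), with Acaa1b in place of Hsd17b4. Treated arrays lay above every WT control array for 15 of the 36 genes at 10 mg/kg (5.23% of all genes) and for 11 at 3 mg/kg (0.88%), and without the doubted arrays for 21 (14.9%) and 15 (4.57%).

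**Figure D1:**
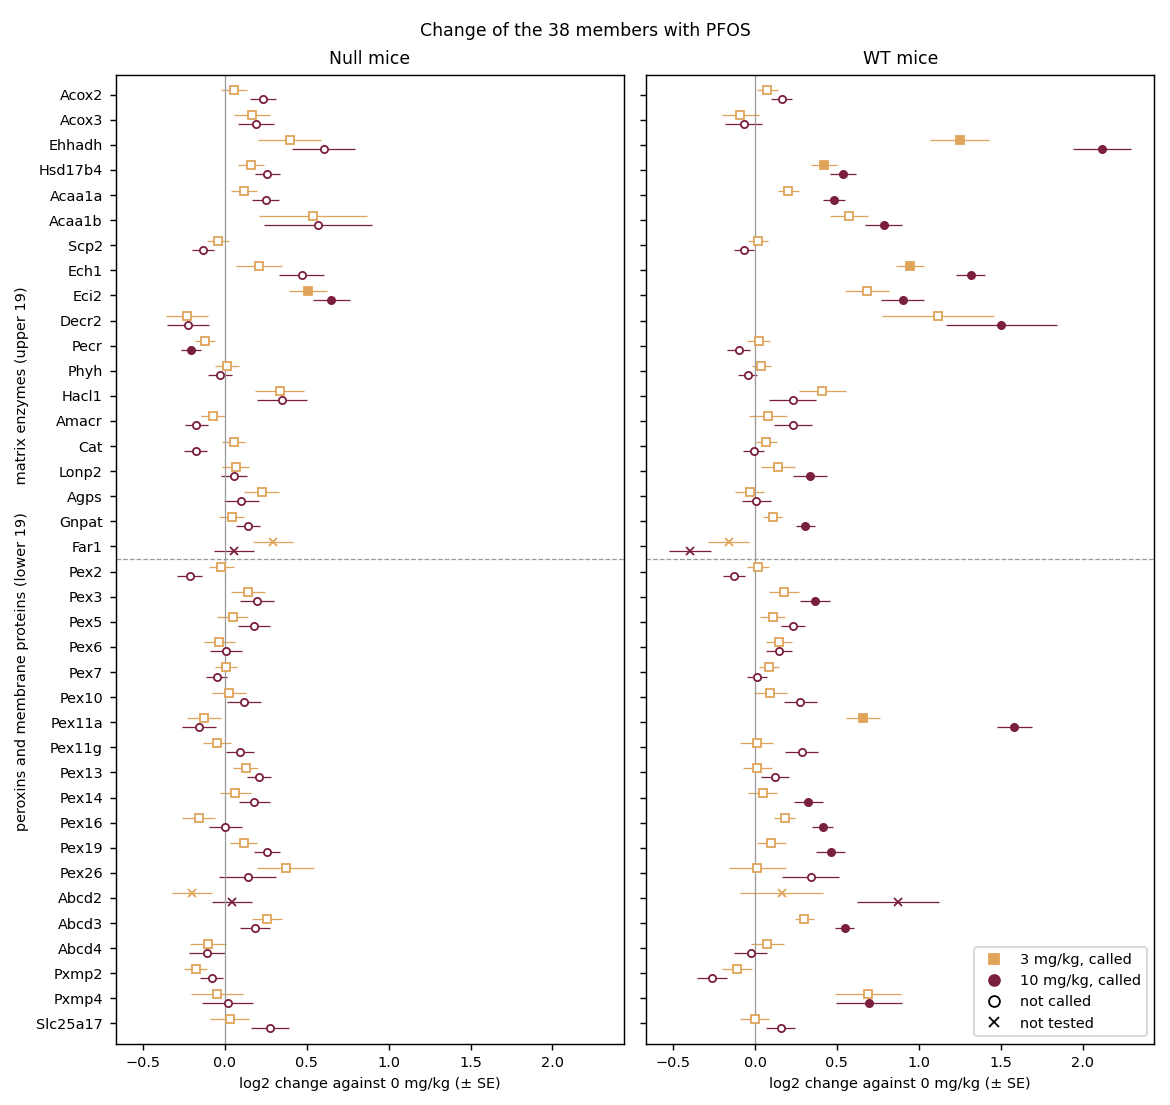
Log2 change against 0 mg/kg (± SE) of the 38 genes in Null mice (left panel) and WT mice (right panel) at 3 mg/kg (squares) and 10 mg/kg (circles), matrix enzymes above and membrane genes below the dashed line; filled symbols were called, open symbols were not, and crosses mark the 2 genes that were not tested. In WT mice 16 genes carry a filled symbol at 10 mg/kg, with Ehhadh farthest out at 2.12, and in Null mice 2 do.

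Fatty acid β-oxidation in the matrix is run by oxidases, bifunctional enzymes, and thiolases. Ehhadh, the L-bifunctional enzyme, showed the largest change among the tested members. Its values in the 5 Null control arrays were 11.24, 11.51, 11.18, 11.53, and 10.99, with 11.87, 11.93, 11.91, 10.98, and 11.75 at 3 mg/kg and 12.19, 12.14, 11.66, 11.33, and 12.14 at 10 mg/kg. In WT mice they were 11.10, 11.41, 10.99, 12.00, and 12.17 at 0 mg/kg, 12.66, 12.67, 12.83, 12.82, and 12.92 at 3 mg/kg, and 13.66, 13.67, 13.71, 13.58, and 13.64 at 10 mg/kg. All WT arrays at 3 mg/kg lay above all at 0 mg/kg, all at 10 mg/kg lay above all at 3 mg/kg, and the highest 2 control values were those of the doubted arrays. Ehhadh was 2.37-fold higher at 3 mg/kg (log2 change 1.25 ± 0.18 SE, limma adjusted p = 0.00582) and 4.34-fold higher at 10 mg/kg (2.12 ± 0.18, adjusted p = 4.26e-06). Without the doubted arrays these changes were 1.61 (adjusted p = 4.03e-07) and 2.48 (adjusted p = 1.5e-09). In Null mice the change at 10 mg/kg was 0.60 ± 0.19 and did not pass (adjusted p = 0.0705), with Null replicate 4 at 10 mg/kg inside the control range.

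Hsd17b4, the D-bifunctional enzyme that handles branched chains and bile acid intermediates, moved less. Null arrays read 11.63, 11.80, 11.69, 11.74, and 11.56 at 0 mg/kg, 11.89, 11.92, 11.85, 11.68, and 11.90 at 3 mg/kg, and 11.99, 12.08, 11.85, 11.76, and 12.06 at 10 mg/kg. WT arrays read 12.22, 12.39, 12.20, 11.93, and 12.00 at 0 mg/kg, 12.53, 12.71, 12.57, 12.53, and 12.51 at 3 mg/kg, and 12.70, 12.73, 12.70, 12.61, and 12.67 at 10 mg/kg. Every treated WT array lay above every WT control array, and the 2 doubted arrays were the lowest of the controls. The change in WT mice was 0.42 ± 0.08 at 3 mg/kg (1.34-fold, limma adjusted p = 0.0444) and 0.53 ± 0.08 at 10 mg/kg (1.45-fold, adjusted p = 0.000733). The call at 3 mg/kg was lost without the doubted arrays (0.30, adjusted p = 0.0782) and on leaving out any of 14 of the 15 WT arrays (adjusted p = 0.0554 to 0.139), WT 0 mg/kg replicate 2 being the exception. Its second kept probe set was not called at 3 mg/kg either (0.49, adjusted p = 0.117) but was at 10 mg/kg (0.72, adjusted p = 0.000782). In Null mice the change at 10 mg/kg was 0.26 ± 0.08, just short of the threshold (adjusted p = 0.0533).

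The thiolases Acaa1a and Acaa1b, which release the shortened acyl-CoA, are near-identical paralogs, and 2 probe sets that name both were not used. Acaa1b read 12.65, 13.09, 12.52, 13.13, and 12.38 in Null mice at 0 mg/kg, 13.59, 13.60, 13.54, 12.41, and 13.31 at 3 mg/kg, and 13.85, 13.79, 13.27, 11.89, and 13.82 at 10 mg/kg. In WT mice it read 13.38, 13.55, 13.02, 13.66, and 13.87 at 0 mg/kg, 14.03, 14.02, 14.12, 14.15, and 14.03 at 3 mg/kg, and 14.25, 14.35, 14.33, 14.23, and 14.25 at 10 mg/kg. All treated WT arrays were above all WT control arrays, whereas in Null mice replicate 4 was the lowest array at both doses and the groups overlapped. Acaa1b was 1.72-fold higher in WT mice at 10 mg/kg (0.79 ± 0.11, limma adjusted p = 0.000653, and 0.97 with adjusted p = 2.29e-05 without the doubted arrays). Its change at 3 mg/kg, 0.57 ± 0.11, was not called (adjusted p = 0.065) but was without the doubted arrays (0.75, adjusted p = 0.00139). In Null mice a change of similar size, 0.57 ± 0.33 at 10 mg/kg, came with a spread over arrays of 0.837 (SD, n = 5) and did not pass (adjusted p = 0.322). Acaa1a rose by 0.48 in WT mice at 10 mg/kg (adjusted p = 0.000285, and 0.54 with adjusted p = 0.000203 without the doubted arrays), and its second kept probe set rose by 0.81 (adjusted p = 0.000172). Both of these probe sets are of the kind that can bind several transcripts, so Acaa1b signal in them cannot be told apart from that of Acaa1a. Scp2, whose product joins a thiolase to a sterol carrier, and the branched-chain oxidases Acox2 and Acox3 were not called (-0.07, 0.16, and -0.07), although Acox2 was without the doubted arrays (0.25, adjusted p = 0.0101).

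The 3 auxiliary enzymes that let β-oxidation proceed past double bonds were all called higher in WT mice at 10 mg/kg. Ech1, a dienoyl-CoA isomerase, read 10.44, 11.06, 10.90, 11.14, and 10.91 in Null mice at 0 mg/kg, 11.09, 11.12, 11.29, 10.84, and 11.16 at 3 mg/kg, and 11.58, 11.58, 11.10, 11.05, and 11.49 at 10 mg/kg. Its WT values were 11.77, 12.07, 11.77, 11.55, and 11.62 at 0 mg/kg, 12.69, 12.62, 12.71, 12.67, and 12.82 at 3 mg/kg, and 13.07, 13.23, 12.94, 13.00, and 13.10 at 10 mg/kg. The 3 WT groups did not overlap and rose in order of dose, and in Null mice the groups overlapped. Ech1 was 1.93-fold higher at 3 mg/kg (0.95 ± 0.09, limma adjusted p = 6.29e-05) and 2.49-fold higher at 10 mg/kg (1.31 ± 0.09, adjusted p = 3.17e-07) in WT mice. These changes were 0.83 and 1.20 without the doubted arrays, both still called. In Null mice Ech1 changed by 0.47 ± 0.14 at 10 mg/kg (adjusted p = 0.0513).

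Eci2, an enoyl-CoA isomerase, was the member that also rose in Null mice at both doses. Its Null values were 9.93, 10.19, 10.14, 10.42, and 10.26 at 0 mg/kg, 10.68, 10.73, 10.82, 10.43, and 10.82 at 3 mg/kg, and 10.89, 11.03, 10.67, 10.56, and 11.04 at 10 mg/kg. Its WT values were 11.45, 11.54, 11.20, 10.84, and 10.84 at 0 mg/kg, 11.72, 11.92, 11.84, 11.83, and 11.99 at 3 mg/kg, and 12.05, 12.20, 12.30, 11.79, and 12.03 at 10 mg/kg. Treated arrays lay above all control arrays of their own genotype in both genotypes, but every Null array was below every treated WT array. In Null mice Eci2 was 1.42-fold higher at 3 mg/kg (0.51 ± 0.11, limma adjusted p = 0.0209) and 1.57-fold higher at 10 mg/kg (0.65 ± 0.11, adjusted p = 0.00368). The call at 3 mg/kg was lost without Null 0 mg/kg replicate 3, Null 3 mg/kg replicate 2, or Null 3 mg/kg replicate 5 (adjusted p = 0.0571, 0.0551, and 0.0607). In WT mice the change was 0.68 ± 0.13 at 3 mg/kg (adjusted p = 0.0542) and 0.90 ± 0.13 at 10 mg/kg (1.87-fold, adjusted p = 0.000727, and 0.68 with adjusted p = 0.000859 without the doubted arrays).

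Decr2, the peroxisomal dienoyl-CoA reductase, showed the widest gap between the genotypes. Null arrays read 8.86, 8.95, 9.08, 9.44, and 8.96 at 0 mg/kg, 8.78, 8.85, 8.90, 8.74, and 8.88 at 3 mg/kg, and 8.87, 9.34, 8.63, 8.66, and 8.67 at 10 mg/kg. WT arrays read 10.93, 10.64, 10.67, 8.89, and 8.84 at 0 mg/kg, 10.96, 10.98, 11.19, 11.21, and 11.21 at 3 mg/kg, and 11.61, 11.55, 11.68, 11.29, and 11.35 at 10 mg/kg. The 13 WT arrays other than the doubted ones were all above 10.6 on this scale, and the 2 doubted arrays sat among the Null values. Decr2 was 2.83-fold higher at 10 mg/kg in WT mice (1.50 ± 0.34, limma adjusted p = 0.0138), and without the doubted arrays the change was smaller and its error narrower (0.75 ± 0.11, adjusted p = 0.000355). The change at 3 mg/kg was 1.12 ± 0.34 (adjusted p = 0.524), or 0.36 without the doubted arrays (adjusted p = 0.194). In Null mice it was -0.22 ± 0.13 at 10 mg/kg (adjusted p = 0.326).

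**Figure D2:**
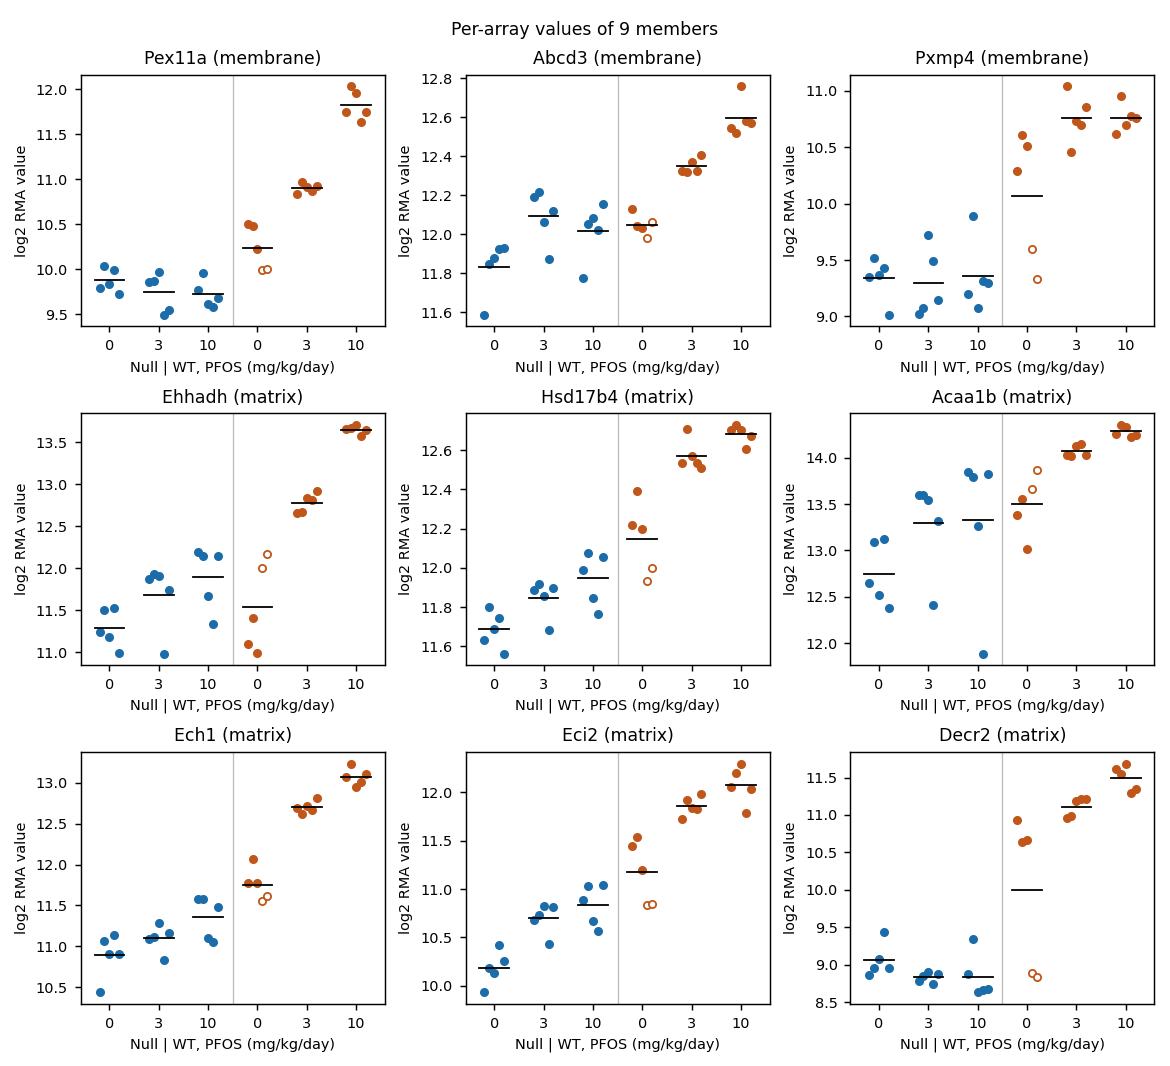
Log2 expression value of 9 genes in each of the 30 arrays by genotype and dose, Null groups left of WT groups; points are arrays, bars are group means, and open points are the 2 doubted arrays. Ehhadh, Ech1, and Pex11a climb with dose in WT mice, and for Decr2 the open points (8.89 and 8.84) lie among the Null arrays.

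Other matrix enzymes moved little. Gnpat, which starts ether lipid synthesis, rose by 0.31 in WT mice at 10 mg/kg (adjusted p = 0.00429, and 0.34 with adjusted p = 0.00258 without the doubted arrays), while Agps, the next enzyme of that pathway, changed by 0.01. Lonp2, the matrix protease, was called at 0.34 (adjusted p = 0.0493), but not without the doubted arrays (0.27, adjusted p = 0.118) nor on leaving out any of 12 single WT arrays (adjusted p = 0.0593 to 0.127), the call holding only without WT 0 mg/kg replicate 2 or WT 3 mg/kg replicate 2 or 4. The other 3 kept probe sets of Lonp2 were not called (-0.01, 0.06, and 0.23). Cat, catalase, changed by -0.01 (adjusted p = 0.96) in WT mice at 10 mg/kg. The enzymes of α-oxidation and of branched-chain handling, Phyh, Hacl1, and Amacr, were called in 0 of 3 (-0.05, 0.23, and 0.23). Pecr, an enoyl-CoA reductase, changed by -0.10 (adjusted p = 0.372).

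Among peroxins, Pex11a, which drives elongation and division of the organelle and is the inducible Pex11 gene in rodent liver, changed most. Null arrays read 9.79, 10.04, 9.84, 9.99, and 9.73 at 0 mg/kg, 9.86, 9.87, 9.97, 9.50, and 9.55 at 3 mg/kg, and 9.77, 9.96, 9.62, 9.58, and 9.68 at 10 mg/kg. WT arrays read 10.50, 10.48, 10.23, 10.00, and 10.00 at 0 mg/kg, 10.83, 10.97, 10.92, 10.87, and 10.93 at 3 mg/kg, and 11.75, 12.04, 11.96, 11.63, and 11.75 at 10 mg/kg. The 3 WT groups did not overlap, and the 2 doubted arrays, both at 10.00, were the lowest WT controls. Pex11a was 1.58-fold higher at 3 mg/kg (0.66 ± 0.11, limma adjusted p = 0.0128, and 0.50 with adjusted p = 0.03 without the doubted arrays) and 2.99-fold higher at 10 mg/kg (1.58 ± 0.11, adjusted p = 3.17e-07, and 1.42 with adjusted p = 5.82e-07). Leaving out WT 3 mg/kg replicate 3 ended the call at 3 mg/kg (adjusted p = 0.0597). In Null mice the change was -0.13 at 3 mg/kg (adjusted p = 0.581) and -0.15 ± 0.10 at 10 mg/kg (adjusted p = 0.408). Pex11g, a second division gene, changed by 0.28 in WT mice at 10 mg/kg (adjusted p = 0.0787, and 0.42 with adjusted p = 0.00727 without the doubted arrays).

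All 3 genes of membrane protein insertion were called higher in WT mice at 10 mg/kg: Pex3 (0.36, adjusted p = 0.022), Pex16 (0.41, adjusted p = 0.00112), and Pex19 (0.46, adjusted p = 0.0049), all 3 also without the doubted arrays. The second kept probe set of Pex16, with a lower signal, changed by 0.05 and was not called (adjusted p = 0.827), whereas the other kept probe sets of Pex3 and Pex19 were called higher. The call of Pex3 was lost on leaving out WT 0 mg/kg replicate 1, 2, or 3 (adjusted p = 0.0536 to 0.059). Of the docking proteins that take in the loaded carriers, Pex14 was called (0.33, adjusted p = 0.0294, and called without the doubted arrays) and Pex13 was not (0.12). The call of Pex14 was lost without any of WT 0 mg/kg replicates 1, 2, and 3 and WT 10 mg/kg replicates 1, 2, and 5 (adjusted p = 0.0611 to 0.0813). The carriers Pex5 and Pex7 (0.23 and 0.01), the ubiquitin ligases Pex2 and Pex10 (-0.13 and 0.28), and the recycling factors Pex6 and Pex26 (0.15 and 0.34) were called in 0 of 6, of which Pex10 was called without the doubted arrays (0.41, adjusted p = 0.00853).

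Of the membrane transporters, Abcd3, which brings long and branched acyl-CoA into the organelle, was called. Null arrays read 11.59, 11.85, 11.88, 11.92, and 11.93 at 0 mg/kg, 12.19, 12.22, 12.07, 11.87, and 12.12 at 3 mg/kg, and 11.78, 12.05, 12.08, 12.02, and 12.16 at 10 mg/kg. WT arrays read 12.13, 12.04, 12.03, 11.98, and 12.06 at 0 mg/kg, 12.33, 12.32, 12.37, 12.32, and 12.41 at 3 mg/kg, and 12.55, 12.52, 12.76, 12.58, and 12.57 at 10 mg/kg. The WT groups did not overlap, the doubted arrays (11.98 and 12.06) lay close to the other controls, and the Null groups overlapped. Abcd3 was 1.46-fold higher in WT mice at 10 mg/kg (0.55 ± 0.06, limma adjusted p = 3.22e-05, and 0.53 with adjusted p = 0.000166 without the doubted arrays) and changed by 0.30 ± 0.06 at 3 mg/kg (adjusted p = 0.0518). In Null mice it changed by 0.26 ± 0.09 at 3 mg/kg (adjusted p = 0.132) and 0.19 ± 0.09 at 10 mg/kg (adjusted p = 0.242). Slc25a17, a carrier of cofactors such as coenzyme A, changed by 0.16 in WT mice at 10 mg/kg and was called without the doubted arrays (0.30, adjusted p = 0.0123), and Abcd4, a relative now placed mainly outside peroxisomes, changed by -0.03. Abcd2 read 4.94, 5.22, 6.25, 5.05, and 5.11 in WT mice at 10 mg/kg, against 5.17, 4.50, 4.55, 4.11, and 3.87 in WT control mice, with 1 array above the filter and no test.

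Pxmp4, a membrane protein of little known function, was the membrane gene whose call rested on the doubted arrays. Null arrays read 9.35, 9.52, 9.37, 9.43, and 9.02 at 0 mg/kg, 9.02, 9.08, 9.72, 9.49, and 9.15 at 3 mg/kg, and 9.19, 9.89, 9.07, 9.31, and 9.30 at 10 mg/kg. WT arrays read 10.29, 10.61, 10.51, 9.60, and 9.33 at 0 mg/kg, 11.04, 10.46, 10.73, 10.69, and 10.86 at 3 mg/kg, and 10.62, 10.95, 10.70, 10.78, and 10.76 at 10 mg/kg. The 2 doubted arrays, at 9.60 and 9.33, lay in the Null range and the other 13 WT arrays above it. The change in WT mice at 10 mg/kg was 0.69 ± 0.20 (1.62-fold, limma adjusted p = 0.0404), and 0.29 ± 0.12 without the doubted arrays (adjusted p = 0.088). That call was also lost on leaving out any of 10 single WT arrays (adjusted p = 0.0508 to 0.0915): replicates 1, 4, and 5 at 0 mg/kg, replicates 3, 4, and 5 at 3 mg/kg, and all but replicate 3 at 10 mg/kg. Its second kept probe set changed by 0.74 and was not called (adjusted p = 0.0544). Pxmp2, a membrane channel protein, changed by -0.26 (adjusted p = 0.0737).

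The doses were also compared with each other. Between 10 and 3 mg/kg in WT mice, 7 of the 36 genes were called and all 7 were higher (5.54% of all genes were called, 3.16% higher): Ehhadh (0.87, adjusted p = 0.0155), Ech1 (0.37, adjusted p = 0.0287), Acaa1a (0.28, adjusted p = 0.0258), Pex11a (0.92, adjusted p = 0.000518), Pex19 (0.37, adjusted p = 0.0307), Abcd3 (0.25, adjusted p = 0.0275), and Pex16 (0.23, adjusted p = 0.0486). The calls of Ehhadh and Pex11a held on leaving out each of the 15 WT arrays in turn, and the other 5 were lost without any of 6 to 11 of them. Control arrays enter this comparison through the shared error alone, and 11 members were called when the doubted arrays were left out of it. This larger count is not read as a result about the members, since its share of all genes is not given here. The second kept probe set of Pex16 ran the other way (-0.18, adjusted p = 0.367). Treated arrays at 10 mg/kg lay above all arrays at 3 mg/kg for 10 of the 36 genes (6% of all genes).

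In Null mice, fitted alone, 2.78% of members were called in either direction at 3 mg/kg and 5.56% at 10 mg/kg. Neither share was above that of all genes. Against 0 mg/kg, 1 of 36 was called at 3 mg/kg (4.38% of all genes, 1.67% higher), which was Eci2. At 10 mg/kg 2 were called (7.37% of all genes, 3.28% higher and 4.09% lower), Eci2 higher and Pecr lower. The count at 10 mg/kg depended on the fit. With the arrays of both genotypes fitted together, 9 of 36 were called (7 higher and 2 lower), and 1153 of all 12156 genes. With single Null arrays left out, 1 to 6 members were called. The 6 were called without Null 10 mg/kg replicate 4, with 881 genes in all. Pecr read 11.97, 11.84, 11.89, 11.81, and 11.88 in Null mice at 10 mg/kg, against 12.01, 12.08, 12.08, 12.11, and 12.14 in Null control mice. These groups did not overlap, and the difference was small (-0.21 ± 0.06, limma adjusted p = 0.0465). The call was lost on leaving out any of 11 of the 15 Null arrays (adjusted p = 0.0566 to 0.105), the exceptions being Null 0 mg/kg replicate 1, Null 3 mg/kg replicates 3 and 4, and Null 10 mg/kg replicate 1. The second kept probe set of Pecr changed by -0.04 (adjusted p = 0.908). Over the members the median change was 0.05 at the lower dose and 0.11 at the higher one (0.00 for all genes in both cases), and the range at 10 mg/kg was -0.22 to 0.65. Treated Null arrays lay above all Null control arrays for 3 of the 36 members at 3 mg/kg (4% of all genes). At 10 mg/kg they lay above them for 1 (3.38%) and below them for 2 (4.15%). Members just short of the threshold at 10 mg/kg were Ech1, Hsd17b4, Pex19 (0.26, adjusted p = 0.0666), Ehhadh, and Acaa1a (0.25, adjusted p = 0.0737). Another kept probe set of Pex19 was called higher in Null mice at 10 mg/kg (0.40, adjusted p = 0.0131). Between 10 and 3 mg/kg, 0 members and 0% of all genes were called by limma, with 3 members at an unadjusted p under 0.05.

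Whether the genotypes differed in their response was tested directly, as the change in Null mice minus the change in WT mice. At 10 mg/kg, 4 of the 36 genes were called, all lower (3.21% of all genes were called, 2.63% lower), and the same 4 were called without the doubted arrays (4.47% of all genes, 3.21% lower). Ehhadh differed by -1.51 ± 0.28 (adjusted p = 0.00313, and -1.88 with adjusted p = 4.21e-05 without the doubted arrays). Ech1 differed by -0.84 ± 0.17 (adjusted p = 0.00692, and -0.73 with adjusted p = 0.0231). Decr2 differed by -1.73 ± 0.38 (adjusted p = 0.0138, and -0.97 with adjusted p = 0.00356), the size of this difference thus depending on the doubted arrays. Pex11a differed by -1.74 ± 0.15 (adjusted p = 4.41e-08, and -1.58 with adjusted p = 2.36e-07), and was the 1 membrane gene of the 4. Each of these 4 calls held on leaving out each of the 30 arrays in turn. At 3 mg/kg, 2 were called (1.09% of all genes, 0.905% lower), Pex11a (-0.79 ± 0.15, adjusted p = 0.0177) and Ech1 (-0.74 ± 0.17, adjusted p = 0.032). Without the doubted arrays these differences were -0.63 (adjusted p = 0.0703) and -0.62 (adjusted p = 0.116) and were not called, and Ehhadh was called in their place (-1.22, adjusted p = 0.0368, with 0.165% of all genes called and 0.148% lower). Ech1 at 3 mg/kg was also lost on leaving out any of 15 single arrays (adjusted p = 0.0511 to 0.0833).

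For the other members called in WT mice at 10 mg/kg, the difference between the genotypes did not pass, with or without the doubted arrays. The values that follow include those arrays. Abcd3 differed by -0.36 ± 0.10 (adjusted p = 0.0545) and Pex16 by -0.41 ± 0.12 (adjusted p = 0.053), just short of the threshold. Eci2 differed by -0.25 ± 0.18 (adjusted p = 0.533), Acaa1b by -0.21 ± 0.37 (adjusted p = 0.843), and Pxmp4 by -0.68 ± 0.27 (adjusted p = 0.189). Hsd17b4 and Acaa1a were not called by their brightest probe set (-0.27 and -0.23, adjusted p = 0.183 and 0.229) but were by a second one (-0.75 and -0.69, adjusted p = 0.0471 and 0.037). Those second probe sets, and the brightest one of Acaa1a, are of the kind that can bind several transcripts. Over the 36 genes the median difference was -0.17 at 10 mg/kg, with 8 of 36 above 0, against 0.01 for all genes.

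Levels in the 2 genotypes were then compared at each dose. In control mice, 4 of 36 genes were called (1.39% of all genes, 0.65% lower and 0.74% higher): Hsd17b4 (-0.46, adjusted p = 0.00239), Ech1 (-0.87, adjusted p = 0.000227), and Eci2 (-0.98, adjusted p = 9.57e-05) were lower and Pex2 was higher (0.34, adjusted p = 0.0144) in Null mice. Without the doubted arrays 6 were called, all lower (1.14% of all genes lower), 3 of them shared: Pex11a (-0.53, adjusted p = 0.00776), Pxmp4 (-1.13, adjusted p = 0.0001), and Decr2 (-1.69, adjusted p = 9.96e-09) were added and Pex2 was lost (0.29, adjusted p = 0.0554). Ehhadh differed little between control mice (-0.24, adjusted p = 0.603, and 0.12 with adjusted p = 0.84 without the doubted arrays). Its arrays thus overlapped at 0 mg/kg and separated with treatment, whereas those of Hsd17b4, Ech1, and Eci2 did not overlap at any dose.

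Among mice given 3 mg/kg, 12 genes were called (9.84% of all genes), 10 lower (4.58%) and 2 higher (5.26%) in Null mice. Among mice given 10 mg/kg, 16 were called (13.4%), 14 lower (7.23%) and 2 higher (6.17%). The 14 were 9 matrix enzymes and 5 membrane genes. Decr2 had the largest difference at both doses, -2.28 (adjusted p = 2.45e-06) at 3 mg/kg and -2.66 (adjusted p = 6.67e-08) at 10 mg/kg, followed at 10 mg/kg by Pex11a (-2.10, adjusted p = 6.48e-14), Ehhadh (-1.76, adjusted p = 2.97e-07), and Ech1 (-1.71, adjusted p = 4.3e-11). Pxmp4 differed by -1.46 (adjusted p = 1.08e-05) at the lower and -1.41 (adjusted p = 7.59e-06) at the higher dose. Smaller differences at 10 mg/kg were those of Acaa1b (-0.96, adjusted p = 0.0154, and lost without Null 10 mg/kg replicate 4, adjusted p = 0.0512), Abcd3 (-0.58), Pex16 (-0.49), Lonp2 (-0.43), Pex19 (-0.40), Acaa1a (-0.38), and Amacr (-0.32). The call of Amacr was lost without Null 10 mg/kg replicate 3 or 4 or WT 10 mg/kg replicate 1 or 2 (adjusted p = 0.0501 to 0.078). Eci2 (group mean 10.84 in Null and 12.07 in WT mice) and Hsd17b4 (11.95 and 12.68) were called lower at 10 mg/kg as well. Null arrays lay below all WT arrays for 4 of the 36 genes at 0 mg/kg (1.77% of all genes), or 8 (6.37%) without the doubted arrays. The dose of 3 mg/kg had 11 such genes (3.96%) and that of 10 mg/kg had 14 (5.22%).

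A few members were higher in Null mice. Pex2 was called higher at all 3 doses (0.34, 0.30, and 0.25), but its second kept probe set differed by -0.09, -0.07, and 0.04 with no call, so the direction depended on the probe set, and the call at 10 mg/kg was lost without Null 10 mg/kg replicate 4 (adjusted p = 0.0665). Pxmp2 was higher at 10 mg/kg (0.29, adjusted p = 0.0169, lost without WT 10 mg/kg replicate 2 at adjusted p = 0.0527), and Cat at 3 mg/kg (0.22, adjusted p = 0.0261). The call of Cat was lost without Null 3 mg/kg replicate 1, 2, or 3 or WT 3 mg/kg replicate 5 (adjusted p = 0.0583 to 0.0898). Calls at 3 mg/kg of Abcd3 (-0.26, adjusted p = 0.0266) and Acaa1a (-0.23, adjusted p = 0.0351) were lost as well without any of 4 arrays (adjusted p = 0.0535 to 0.0778) and 7 arrays (adjusted p = 0.056 to 0.0974) of these groups.

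**Figure D3:**
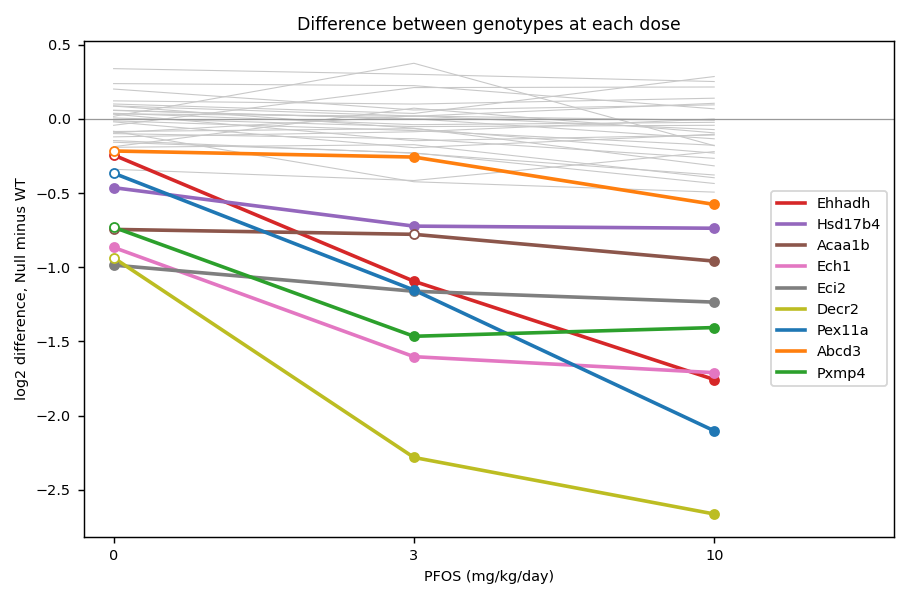
Difference between Null and WT mice (Null minus WT, log2) of the 36 tested genes at 0, 3, and 10 mg/kg, each line a gene; the 9 genes described in every array are colored and filled points were called. At 10 mg/kg Decr2 (-2.66) and Pex11a (-2.10) lie lowest, and Ehhadh runs from -0.24 at 0 mg/kg to -1.76 at 10 mg/kg.

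Matrix and membrane genes were compared as 2 classes of 19, each array giving the median over a class of the value minus the mean of its own control group. In WT mice at 10 mg/kg the matrix median averaged 0.258 ± 0.047 (SD, n = 5 arrays) and the membrane median 0.282 ± 0.090, so that the difference (matrix minus membrane, -0.0241 ± 0.079) was smaller than its spread over arrays. They averaged, at 3 mg/kg, 0.130 ± 0.036 and 0.0872 ± 0.068, with a difference of 0.0433 ± 0.074. Set against the 3 remaining controls, without the doubted arrays, the WT medians at 10 mg/kg averaged 0.278 (matrix) and 0.336 (membrane), with a difference of -0.0580 ± 0.064, and the difference at 3 mg/kg was 0.0239 ± 0.038, both again smaller than their spread over arrays. In Null mice at 10 mg/kg the matrix median averaged 0.180 ± 0.091 and the membrane median 0.0790 ± 0.096. The difference, 0.101 ± 0.048, was above 0 in all 5 arrays (0.0419 to 0.160), whereas in Null control arrays it ran between -0.0744 and 0.0388. All 5 values subtract the same control mean, to which each control array itself contributes. The 5 signs are thus not independent of each other, and the SD leaves out the spread of the controls. The difference at 3 mg/kg was 0.0767 ± 0.098. No test was made of these medians because genes are not replicates. Taken from the group means, the difference between class medians was 0.111 for 3 mg/kg and 0.0489 for 10 mg/kg in Null mice and 0.0152 and -0.0534 in WT mice, and the value for Null mice at 10 mg/kg was -0.0155 when probe sets that can bind several transcripts were left out. With the mean over members in place of the median, the difference (matrix minus membrane) in WT mice was 0.163 for 3 mg/kg and 0.0953 for 10 mg/kg. Of the 4 tested members with the largest changes in WT mice at 10 mg/kg, 3 were matrix enzymes (Ehhadh, Decr2, and Ech1) and 1 was a membrane gene (Pex11a). The place of Decr2 rested on the doubted arrays, without which its change (0.75) was below that of Acaa1b (0.97), also a matrix enzyme.

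**Figure D4:**
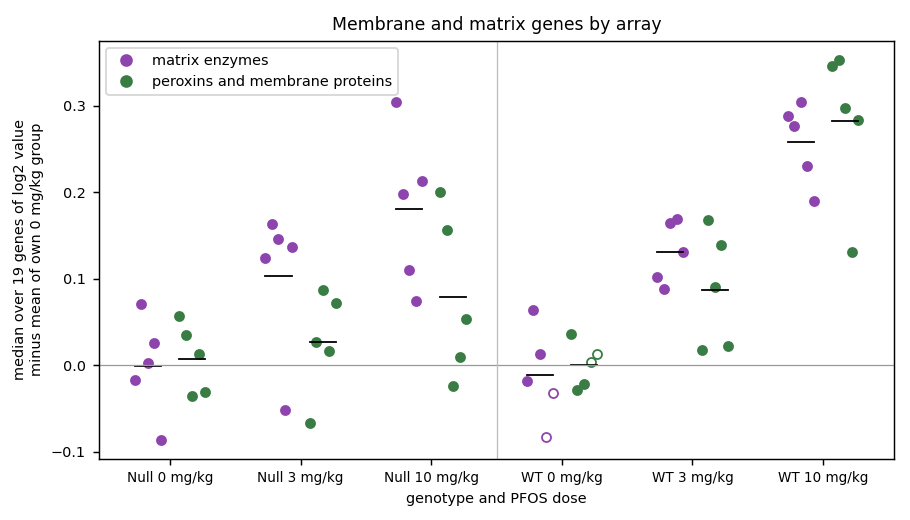
Median over 19 matrix enzymes and over 19 peroxins and membrane proteins of the log2 value minus the mean of the own 0 mg/kg group as labeled, per array, by genotype and dose; bars are means of 5 arrays and open points the 2 doubted arrays. At 10 mg/kg the WT arrays of both classes overlap (0.189 to 0.304 for matrix and 0.130 to 0.353 for membrane genes), and in Null mice the matrix points reach from 0.0737 to 0.305 and the membrane points from -0.0241 to 0.201.

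The size of the WT changes with and without the doubted arrays differed by gene. Decr2, Pxmp4, Eci2, Pex11a, Hsd17b4, and Ech1 changed less at 10 mg/kg against the 3 remaining controls, and Ehhadh and Acaa1b changed more. None of the 16 called genes turned direction.

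**Figure D5:**
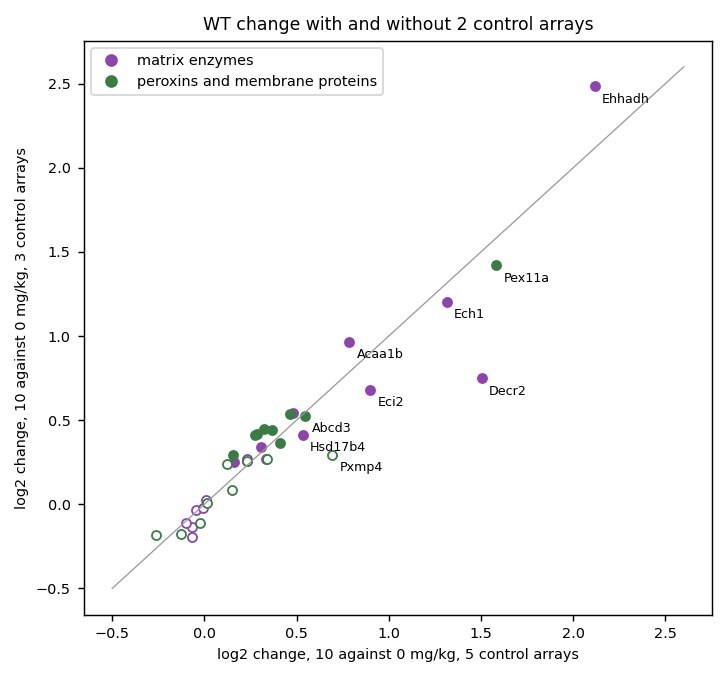
Log2 change of the 36 tested genes in WT mice at 10 mg/kg against 3 control arrays, plotted over the change against all 5 control arrays; the line marks equal values and filled points were called with 3 controls. Decr2 (1.50 with 5 controls, 0.75 with 3) and Pxmp4 (0.69 and 0.29) lie farthest below the line, and Ehhadh (2.12 and 2.48) lies above it.

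Beyond the 38 genes, 40 other peroxisomal genes were listed, of which 33 were named and 32 tested. In WT mice at 10 mg/kg, 11 were called higher and 2 lower (6.6% and 4.67% of all genes). The largest rises were those of Hao2, a hydroxyacid oxidase (1.74, adjusted p = 0.00815), the acyl-CoA thioesterases Acot4 and Acot8 (both 1.29, adjusted p = 0.00911 and 4.48e-06), and Hsdl2, a short-chain dehydrogenase family member (1.14, adjusted p = 3.25e-05). Agxt and Pipox, enzymes of glyoxylate and sarcosine breakdown, fell (-0.35 and -0.47, adjusted p = 0.000976 and 0.00859). Without the doubted arrays 13 were higher (12.4% of all genes) and 6 lower (13%). In Null mice at 10 mg/kg 5 were higher (3.28% of all genes), among them Acot4 (0.63, adjusted p = 0.00102), Nudt19 (0.49, adjusted p = 0.00619), and Idh1 (0.35, adjusted p = 0.0199), and 4 were lower (4.09%), with Nudt7, a coenzyme A hydrolase, lowest (-0.80, adjusted p = 0.0271). The difference in response at 10 mg/kg was called for 4 of the 32, all lower (2.63% of all genes): Acot8 (-1.30, adjusted p = 3.18e-06), Hsdl2 (-0.82, adjusted p = 0.0158), Ephx2, an epoxide hydrolase (-0.65, adjusted p = 0.0179), and Dhrs4 (-0.63, adjusted p = 0.00908). Without the doubted arrays Ephx2 was no longer called (adjusted p = 0.0525) and Acot4 was (-1.18, adjusted p = 0.00155).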

How the data were processed

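The 38 genes and the list of other peroxisomal genes were chosen with earlier results of these data known. Labels gave group and replicate of all 30 arrays, and 0 columns belonged to other samples. The authors extracted RNA from individual livers, labeled and hybridized all samples as a single block, so that no batch was tested, and processed the Affymetrix arrays by RMA, with background adjustment and quantile normalization. They deposited log2 values for 45101 probe sets.

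From these, 64 control probe sets were left out and 24069 were kept that exceeded 5.65, the overall median, on 5 arrays or more. The study states a removal of weak probe sets, with no rule in the sources used here. The annotation table names 1 gene for 34945 probe sets, several for 932, and none for 9160, and symbols were updated through Entrez for 34754. The 38 genes have 76 probe sets (62 kept), and 23 genes have several, of which the kept one with the highest mean over all arrays was read. Values in every array are given for members called with a change of at least 0.5 at 10 mg/kg, for the difference in response at 10 mg/kg, or for Null against WT control mice with a difference of at least 0.5.

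Doses were compared within each genotype (15 arrays) and genotypes in a fit of all 30 arrays with limma 3.58.1 in R 4.3.3 (lmFit, eBayes), adjusted by Benjamini-Hochberg over all kept probe sets. The study's own test, called the methods' t-test, used an unadjusted 0.0025. Steps were tested on simulated data, and pairs of arrays correlated at 0.952 to 0.995 with 0 identical pairs. The number of arrays limits the precision. Alternatives were other filters, probe sets, scalings, spread estimates, sets of arrays, a block by replicate number, the methods' t-test, leaving out each array, and leaving out the doubted arrays. Plots used Python 3.11.15 with matplotlib 3.10.9.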

Additional observations from a re-analysis of the deposited data

Results flagged for a closer look

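In 5 of 54 groups of 5 arrays (9 genes in 6 groups), 1 array lay far from the other 4, where chance alone gives about 1 group in 20. Abcd3 read 11.59 in Null 0 mg/kg replicate 1, against 11.85 to 11.93 in the other 4 arrays, and 12.76 in WT 10 mg/kg replicate 3, against 12.52 to 12.58. Null 3 mg/kg replicate 4 was low for 3 matrix enzymes: Ehhadh read 10.98 against 11.75 to 11.93 in the other 4 arrays, Hsd17b4 11.68 against 11.85 to 11.92, and Acaa1b 12.41 against 13.31 to 13.60. Over the 38 genes this array lay nearest the Null 0 mg/kg mean, at a mean absolute difference of 0.177.

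Responses that differed between the genotypes by the test of the difference (Null minus WT) were those of Pex11a (-0.79, adjusted p = 0.0177) and Ech1 (-0.74, adjusted p = 0.032) at 3 mg/kg, and of Pex11a (-1.74, adjusted p = 4.41e-08), Ehhadh (-1.51, adjusted p = 0.00313), Ech1 (-0.84, adjusted p = 0.00692), and Decr2 (-1.73, adjusted p = 0.0138) at 10 mg/kg. The 2 at 3 mg/kg were not called without the doubted arrays, and the 4 at 10 mg/kg were.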

How the results depend on the processing

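Counts of members called that moved by over 1.5 times are given by comparison. For WT 3 against 0 mg/kg (4), 7 were called with a trend and robust spread, with array weights, and at an unadjusted 0.0025 by limma and by the methods' t-test, and 1 with the compared groups only. The count over all genes, 23, moved there as well, to 28, 37, 85, 79, and 12 in the same order. For WT 10 against 3 mg/kg (7), 11 were called with array weights and without the doubted arrays. For Null 3 against 0 mg/kg (1), 0 were called without probe sets that can bind several transcripts, 3 with array weights, and 2 with all 30 arrays in the fit or the compared groups only. For Null 10 against 0 mg/kg (2), 1 was called with no filter, without probe sets that can bind several transcripts, with arrays shifted to the same median, with the compared groups only, and by limma at an unadjusted 0.0025. In that comparison 4 were called with repeated quantile normalization, with a trend and robust spread, and with array weights, and 9 with all 30 arrays. For the difference in response at 3 mg/kg (2), 1 was called with no filter, with arrays shifted to the same median, and without the doubted arrays, and 4 with array weights. At 10 mg/kg (4), 7 were called with the mean of the probe sets of a gene. For Null against WT at 0 mg/kg (4), 2 were called without probe sets that can bind several transcripts and with the mean of the probe sets, and 9 with array weights and by limma at an unadjusted 0.0025. These moves are not read as results about the members, and their cause was not tested.

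With each array left out, counts were 2 to 5 for WT 3 against 0 mg/kg (2 without WT 3 mg/kg replicate 3), 12 to 18 for WT 10 against 0 mg/kg, and 2 to 8 for WT 10 against 3 mg/kg (2 without replicate 1, 2, or 3 at 3 mg/kg or 1 or 5 at 10 mg/kg, and 3 without replicate 4 at 3 mg/kg or 2 at 10 mg/kg). They were 0 to 2 for Null 3 against 0 mg/kg (2 without Null 10 mg/kg replicate 1), 1 to 6 for Null 10 against 0 mg/kg (6, 5, and 4 without Null 10 mg/kg replicates 4, 3, and 1, 5 without Null 3 mg/kg replicate 4, and 1 without 9 others), and 0 for Null 10 against 3 mg/kg (0 also by the methods' t-test after Benjamini-Hochberg, 4 at an unadjusted p under 0.05). For the difference in response they were 1 to 3 at 3 mg/kg and 4 to 6 at 10 mg/kg. For Null against WT they were 4 to 7 at 0 mg/kg (7 without WT 0 mg/kg replicate 5), 9 to 13 at 3 mg/kg, and 13 to 18 at 10 mg/kg. Counts over all genes moved too. For WT 10 against 0 mg/kg, 1370 with every array, that count was 662 without WT 0 mg/kg replicate 1 and 2116 without replicate 5. For WT 3 against 0 mg/kg, 23 with every array, it was 12 without WT 3 mg/kg replicate 3. The difference between class medians (matrix minus membrane) ran between -0.00770 and 0.112 for WT 3 mg/kg, -0.0879 and 0.0184 for WT 10 mg/kg, 0.0750 and 0.187 for Null 3 mg/kg, and -0.0066 and 0.117 for Null 10 mg/kg. With 1 array left out it moved by more than its spread over arrays in 2 of 10 runs for Null 10 mg/kg and in 1 of 10 for WT 3 mg/kg. It also did so with the mean over members in WT mice (0.163 at 3 mg/kg, 0.0953 at 10 mg/kg). The same held without probe sets that can bind several transcripts in Null mice at 10 mg/kg (-0.0155).

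Of the 68 calls of single members, 62 held without the doubted arrays. The 68 include comparisons without WT control mice, where leaving out these arrays could change no more than the error. In WT mice, 3 of 4 calls held for 3 against 0 mg/kg and 14 of 16 for 10 against 0 mg/kg. For the difference in response, 0 of 2 held at 3 mg/kg and 4 of 4 at 10 mg/kg. For Null against WT at 0 mg/kg, 3 of 4 held. With 1 array left out, 1456 of 1590 held and 134 were lost. Without probe sets that can bind several transcripts 3 turned sign: Pex2 in Null against WT mice at 0 mg/kg (-0.0884) and 3 mg/kg (-0.0680), and Pex16 in WT 10 against 3 mg/kg (-0.18). Replicate numbers did not pair the samples: correlations of same-numbered arrays ran between -0.232 and 0.315. With the replicate number as a block, 4 members were called for WT 10 against 3 mg/kg, 1 for Null 10 against 0 mg/kg, and 7 for Null against WT at 0 mg/kg.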
